A study of Homo sapiens with 12 samples.

Results

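The genes described here are 10 brakes on mTORC1 (the mechanistic target of rapamycin complex 1). Among them are the sestrins SESN1, SESN2 and SESN3 and the stress-induced inhibitors DDIT4 and DDIT4L. The others are the translation repressor EIF4EBP1, the mTOR-binding inhibitor DEPTOR, the arginine sensor CASTOR1, its paralogue CASTOR2, and TSC2. The 10 genes were chosen by name, as brakes on mTORC1, with earlier results of these data known. All 10 were found among the 58735 gene names in the count tables of both cell lines. RNA was sequenced in bulk from 12 cultures of human neuroblastoma (NB) cells. KELLY is an NB line with MYCN amplification and SK-N-AS an NB line without it. KELLY cells received 1 µM Erastin for 24 h and SK-N-AS cells 2 µM Erastin for 24 h, each beside cultures of the same line with DMSO, and each of the 4 groups held 3 samples. Erastin blocks the cystine/glutamate antiporter (system Xc), so that cells take up less cystine. Line and dose changed together, so that a difference in response between the lines cannot be told apart from a difference between the doses. Cells of each line were seeded in triplicate, and p-values measure the spread between such cultures of 1 line.

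mTORC1 is a protein kinase on the lysosome that drives protein synthesis and growth while amino acids, energy and growth factors are plentiful. The Rag GTPases bring it to the lysosome when amino acids are present, and RHEB then switches it on. Sestrins (SESN2 is a leucine sensor) and CASTOR proteins restrain the Rag branch through the GATOR complexes, the TSC complex with TSC2 turns RHEB off, DDIT4 acts through TSC2, DEPTOR binds the kinase itself, and EIF4EBP1 is a substrate that holds back cap-dependent translation until mTORC1 phosphorylates it. Several of these brakes, SESN2 and DDIT4 among them, are known to be raised by the transcription factor ATF4 when amino acids run short. RNA levels, which are what was measured here, do not show how active the kinase was.

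Total counts lay between 24169796 and 29835670 per sample, and no pair of libraries was identical. MYCN was at 5287 ± 358 CPM (read counts scaled to library size, SD, n = 3) in KELLY with DMSO and at 0.366 ± 0.0757 (SD, n = 3) in SK-N-AS with DMSO. The summed level of 8 adrenergic neuroblast markers was 2455 to 3897 CPM in KELLY with DMSO and 953 to 1040 in SK-N-AS, where 2 defining markers, TH and DBH, averaged 2.81 and 4.83 CPM. With Erastin the sum was 3533 to 5274 CPM in KELLY and 929 to 962 CPM in SK-N-AS. The 6 mesenchymal markers summed to 140 to 164 CPM in KELLY and to 2293 to 2648 in SK-N-AS with DMSO. With Erastin they summed to 109 to 139 and to 2258 to 2285 CPM. The highest Erastin sum lay just below the lowest DMSO sum, at 139.4 against 139.6 CPM in KELLY and 2285 against 2293 in SK-N-AS. In SK-N-AS, FN1 alone among these markers averaged higher with Erastin (241 CPM) than with DMSO (231 CPM). The part of the markers in the Erastin results was not tested. Among 8 blood cell markers, PTPRC was at 0 in KELLY and averaged 548 CPM in SK-N-AS with DMSO, where CD3E and LYZ were at 0 in every sample. The libraries also differed within groups in how counts followed the GC content of the genes (Spearman's correlation across 12099 genes between -0.84 and 0.87 in KELLY, and across 11985 genes between -0.76 and 0.78 in SK-N-AS). Genes are not independent replicates and no p is given for these correlations. The largest contrast lay in KELLY, where DMSO replicate 1 had the value -0.84 and Erastin replicate 1 the value 0.87. Each test was therefore also run with this trend removed from every library, and those values are given beside the results they touch.

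SESN2 and DDIT4 were the members that were higher in every Erastin than in every DMSO sample of both lines, and their promoters are printed for that reason, with that of TSC2, a member whose group ranges overlapped in both lines and in which 1 of the windows searched held an ATF4-type match. The sequences are RefSeq windows of 250 bases before to 50 bases after a transcription start (GRCh38.p14), 5′ to 3′ on the strand of the gene. Capitals mark motif matches.
SESN2, chr1:28259268-28259567, + strand: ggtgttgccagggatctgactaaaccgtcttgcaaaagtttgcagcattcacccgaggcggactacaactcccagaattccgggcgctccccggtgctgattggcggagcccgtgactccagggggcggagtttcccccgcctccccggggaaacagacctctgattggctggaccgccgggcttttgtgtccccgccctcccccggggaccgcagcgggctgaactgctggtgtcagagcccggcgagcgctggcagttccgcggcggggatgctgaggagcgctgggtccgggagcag
DDIT4, chr10:72273674-72273973, + strand: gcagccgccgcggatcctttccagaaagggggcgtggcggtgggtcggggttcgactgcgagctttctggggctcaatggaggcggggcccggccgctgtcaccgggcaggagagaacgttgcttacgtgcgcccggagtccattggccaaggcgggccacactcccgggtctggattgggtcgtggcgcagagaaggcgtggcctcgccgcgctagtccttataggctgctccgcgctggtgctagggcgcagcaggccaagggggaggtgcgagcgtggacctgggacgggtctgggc
TSC2, chr16:2047735-2048034, + strand: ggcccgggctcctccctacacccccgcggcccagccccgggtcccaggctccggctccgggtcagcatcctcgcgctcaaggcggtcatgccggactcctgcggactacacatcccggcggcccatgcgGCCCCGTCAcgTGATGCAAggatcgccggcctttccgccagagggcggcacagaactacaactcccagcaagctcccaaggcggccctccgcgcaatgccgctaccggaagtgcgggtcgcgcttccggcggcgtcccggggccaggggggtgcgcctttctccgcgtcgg

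Matches to 3 motifs were searched on both strands. The ATF4-type motif TGATGNAA occurs in 3.62% of 35116 windows of this length, the cyclic AMP response element TGACGTCA in 1.85%, and the antioxidant response element core TGACNNNGC in 13.3%. Neither the SESN2 nor the DDIT4 window held any of the 3, which says only that these letters are not in these 300 bases. The TSC2 window held TGATGCAA at -110 and, on the opposite strand, the antioxidant core at -121, with a gap between the matches. Across the 10 windows of the 7 members searched (EIF4EBP1, DEPTOR and CASTOR2 were not searched), the only other match was an antioxidant core in 1 of the 3 SESN1 windows. A match is a description of sequence and not a measured binding site.

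The main question was whether Erastin changed the RNA of the brakes in each line. Levels are CPM from 1 TMM scaling of all 12 samples, and folds come from edgeR's quasi-likelihood test within each line. A gene was called at a Benjamini-Hochberg adjusted p under 0.05 over all genes tested. The looser threshold of the study's methods (p without adjustment up to 0.05, together with a 1.5-fold difference or more) was counted separately. In KELLY 8 of the 10 members had enough counts to be tested, since DDIT4L and CASTOR1 did not pass the filter, and 0 were called by edgeR, against 0.00615% of the 16258 genes tested (1 gene). At an unadjusted p under 0.05 there were 4 members, beside 2.64% of all genes tested. DESeq2 called 2 members, with no share of all genes given for it. At the study's threshold 4 members were higher with Erastin and 0 were lower, where 2.03% of all genes passed in either direction. In SK-N-AS 9 members were tested, and 2 were called, both higher, against 0.659% of 16095 genes; the same number passed the study's threshold, against 2.67%. The median log2 fold change over the members tested was 0.51 in KELLY and 0.15 in SK-N-AS, beside 0.0052 and -0.0089 over all genes tested. With the GC trend removed, 2 members were called in KELLY (0.203% of all genes) and 3 in SK-N-AS (6.97%). Since the members were chosen with earlier results of these data known, their shares and medians beside those of all genes are a description.

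SESN2, a stress-induced sestrin that binds leucine and restrains mTORC1 through GATOR2, was about 3-fold higher with Erastin in both lines. In KELLY its level was 15.4, 28.2 and 25.4 CPM with DMSO and 87.7, 61.8 and 73.1 CPM with Erastin. The SK-N-AS levels were 9.87, 11.9 and 8.65 CPM with DMSO and 22.5, 32.7 and 28.4 CPM with Erastin. Every Erastin sample lay above every DMSO sample of its line. The log2 fold change was 1.70 (SE 0.26, n = 3 per group, 3.24-fold) in KELLY, with an edgeR adjusted p of 0.342 and an unadjusted p of 0.000206. In SK-N-AS it was 1.47 (SE 0.16, 2.77-fold), with an edgeR adjusted p of 0.000416. KELLY DMSO replicate 1 and Erastin replicate 1, the libraries with the opposite GC trends, held the lowest and the highest level, and exons of SESN2 are 59.6% GC. With the trend removed the KELLY levels were 21.9, 23.5 and 25.9 CPM with DMSO and 57.9, 65.3 and 66.8 CPM with Erastin. The log2 fold change in KELLY was then 1.42 (SE 0.096) and the edgeR adjusted p 0.000442. In bulk RNA, more RNA per cell and a larger share of cells that express a gene cannot be told apart.

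DDIT4 (also called REDD1), which is induced by many stresses and acts on mTORC1 through TSC1 and TSC2, had the largest fold among the members tested in KELLY. Its level there was 8.01, 21.8 and 15.4 CPM with DMSO and 84.7, 48.0 and 59.5 CPM with Erastin. The SK-N-AS levels were 26.0, 24.0 and 18.2 CPM with DMSO and 46.3, 64.8 and 50.8 CPM with Erastin. As for SESN2, the groups did not overlap in either line. The log2 fold change was 2.09 (SE 0.38, 4.27-fold) in KELLY, with an edgeR adjusted p of 0.540 and an unadjusted p of 0.000631. It was 1.26 (SE 0.15, 2.39-fold) in SK-N-AS, with an edgeR adjusted p of 0.00112. The low DMSO and the high Erastin value in KELLY again belonged to replicate 1 of each group. With the GC trend removed the KELLY levels were 11.0, 18.5 and 15.5 CPM with DMSO and 58.9, 50.3 and 54.9 CPM with Erastin, a log2 fold change of 1.86 (SE 0.17) with an edgeR adjusted p of 0.00190. SESN2 and DDIT4 were the 2 members of 8 tested whose groups did not overlap in KELLY, where 8.54% of all genes tested had groups that did not overlap in either direction.

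EIF4EBP1, the eIF4E-binding repressor of cap-dependent translation, had the next largest positive fold change in both lines. In SK-N-AS it was at 79.3, 64.8 and 44.1 CPM with DMSO and at 82.5, 112 and 83.4 CPM with Erastin, and the groups did not overlap by a margin of a few CPM. It was thus the third of 9 members tested without overlap in SK-N-AS, where 14.8% of all genes had none. Its log2 fold change there was 0.57 (SE 0.18, 1.49-fold), with an edgeR adjusted p of 0.292. With the GC trend removed it was 0.64 (SE 0.085) with an edgeR adjusted p of 0.000231. In SK-N-AS it was called in 7 of 15 alternative settings. In KELLY the levels were 24.3, 89.7 and 52.0 CPM with DMSO and 214, 74.1 and 102 CPM with Erastin, with overlapping groups and replicate 1 at the extreme of each. The KELLY log2 fold change was 1.24 (SE 0.53, edgeR adjusted p 0.770), and 0.87 (SE 0.24, adjusted p 0.454) after the GC correction. At 62.9% GC, EIF4EBP1 had the highest GC content of the 10 members.

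**Figure D1:**
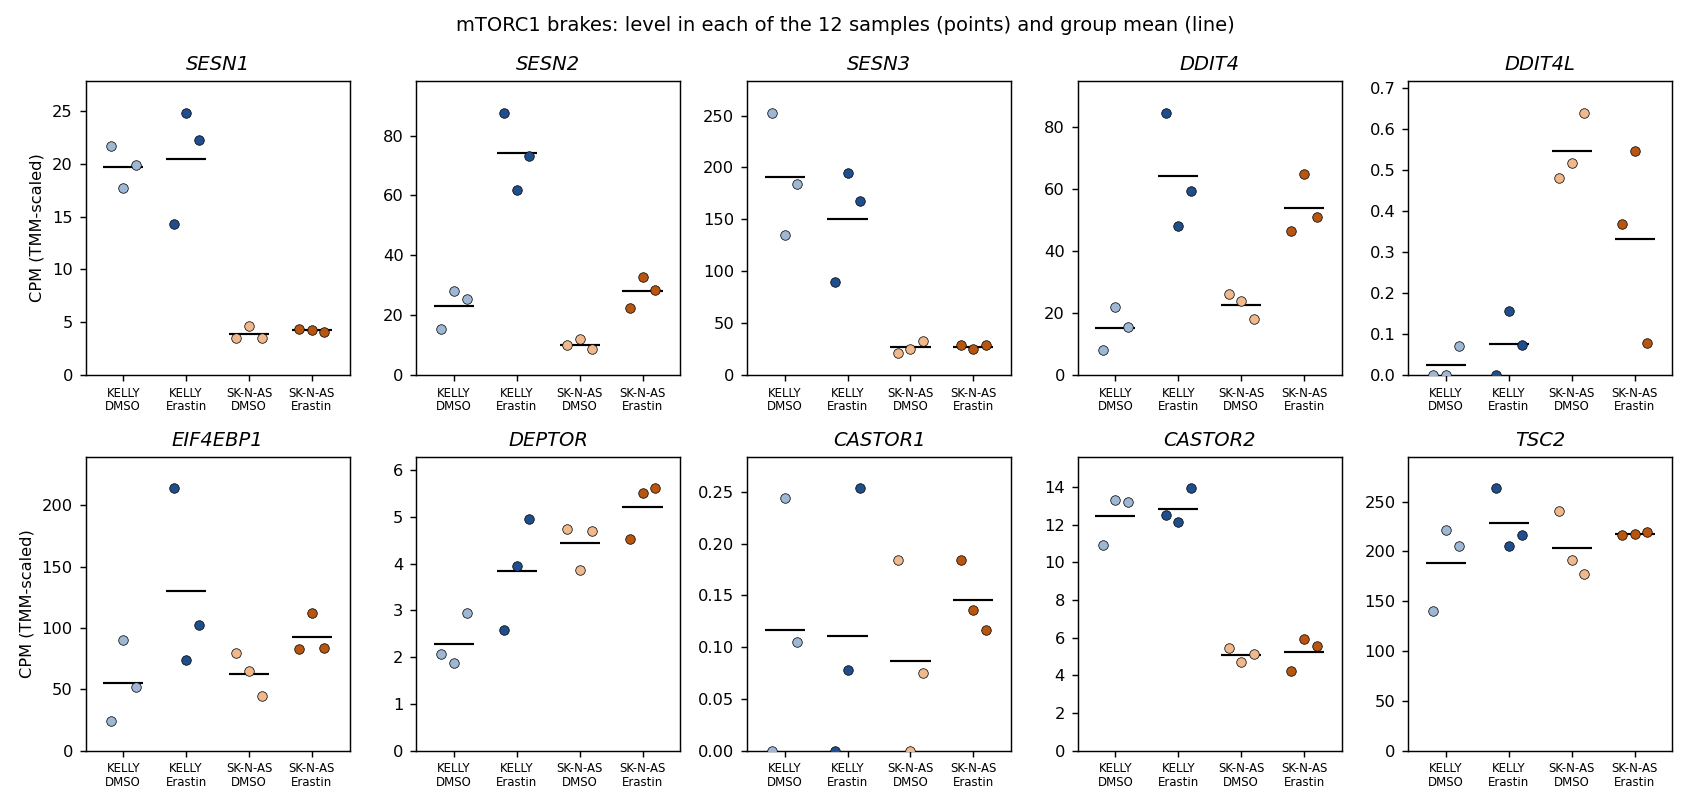
Level of each of the 10 members in CPM (TMM-scaled, vertical axis from 0, a separate scale per gene) in the 3 samples of each of the 4 groups on the horizontal axis, with points for samples in replicate order and lines for group means. SESN2 and DDIT4 lie higher in all Erastin samples than in the DMSO samples of the same line, and SESN1, SESN3 and CASTOR2 lie higher in every KELLY sample than in every SK-N-AS sample.

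SESN1, a sestrin known as a p53 target, did not pass the test in either line. Its level was 21.7, 17.7 and 19.8 CPM with DMSO and 14.3, 24.9 and 22.2 CPM with Erastin in KELLY, and 3.50, 4.61 and 3.46 CPM against 4.39, 4.26 and 4.06 CPM in SK-N-AS. The log2 fold change was 0.054 in KELLY (95% interval -0.48 to 0.59) and 0.15 in SK-N-AS (-0.22 to 0.51), so that a change of the size seen for SESN2 lay outside both intervals. SESN3, the sestrin linked to FOXO factors, was at 253, 135 and 184 CPM with DMSO and 89.4, 195 and 168 CPM with Erastin in KELLY. The groups overlapped. The lowest Erastin and highest DMSO values came from the replicate 1 libraries, in the order opposite to that of SESN2 (the canonical SESN3 transcript is 37.1% GC). Its log2 fold change in KELLY was -0.34 (95% interval -1.10 to 0.42), and -0.067 (-0.31 to 0.17) with the GC trend removed. In SK-N-AS it was at 21.1, 25.3 and 33.1 CPM with DMSO and 28.5, 24.8 and 28.8 CPM with Erastin, a log2 fold change of 0.057 (-0.27 to 0.38).

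The balance among the sestrins differed between treatments. Levels were divided by the length of all exons of each gene (GENCODE 44) so that the genes could be compared. SESN2 made up 14.2%, 34.9% and 26.7% of the summed level of the 3 sestrins in the KELLY DMSO samples and 70.9%, 45.0% and 52.8% after Erastin. Its share in SK-N-AS was 53.5%, 53.3% and 40.9% with DMSO and 66.4%, 76.3% and 71.5% with Erastin. The shares did not overlap between treatments in either line. In KELLY the lowest DMSO and the highest Erastin share came from the replicate 1 libraries, and with the GC trend removed the shares were 23.7%, 27.6% and 27.0% with DMSO against 50.2%, 47.5% and 49.1% with Erastin. With the trend removed in SK-N-AS they were 49.4%, 54.8% and 50.4% against 69.6%, 76.4% and 75.3%, so that the groups were again apart. SESN3 held the largest share in all 3 KELLY DMSO samples, at 64.8% ± 10.9 (SD, n = 3), and SESN2 in all 3 SK-N-AS Erastin samples, at 71.4% ± 4.99 (SD, n = 3). The summed level per exon kb was 27.4 ± 4.03 CPM with DMSO and 38.5 ± 2.38 CPM with Erastin in KELLY, and 5.97 ± 0.585 and 11.2 ± 1.32 CPM in SK-N-AS (SD, n = 3), without overlap in either line. These shares and sums are given as a description, with no test. They are computed from the sestrin levels given above, so they restate the rise of SESN2 and are not a separate result.

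**Figure D2:**
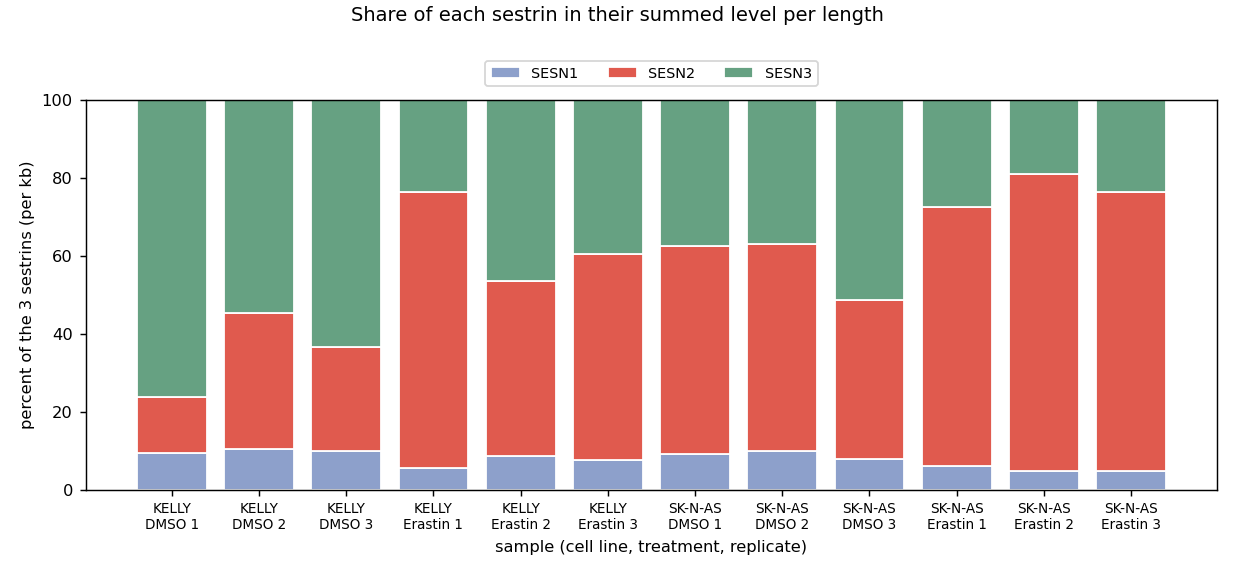
Share of SESN1, SESN2 and SESN3 in their summed level per exon kb (vertical axis, percent, stacked to 100) in each of the 12 samples. The SESN2 share is 14.2% to 34.9% in KELLY with DMSO and 45.0% to 70.9% with Erastin, and 40.9% to 53.5% against 66.4% to 76.3% in SK-N-AS.

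DEPTOR, which binds mTOR and inhibits it, was near 2 to 6 CPM in every sample. In KELLY it was at 2.06, 1.87 and 2.94 CPM with DMSO and 2.59, 3.96 and 4.96 CPM with Erastin, where the lowest Erastin sample fell within the DMSO range. The log2 fold change of 0.74 (SE 0.31) passed the study's threshold with an unadjusted p of 0.0448, but its edgeR adjusted p was 0.770. The SK-N-AS samples had 4.75, 3.86 and 4.70 CPM with DMSO and 4.53, 5.51 and 5.61 CPM with Erastin, a log2 fold change of 0.24 (95% interval -0.11 to 0.59).

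TSC2, the GTPase-activating subunit of the TSC complex that turns RHEB off, was at 140, 221 and 205 CPM with DMSO and 263, 206 and 216 CPM with Erastin in KELLY. The groups overlapped, with a log2 fold change of 0.28 (95% interval -0.19 to 0.75) that turned to -0.025 (-0.26 to 0.21) with the GC trend removed. In SK-N-AS it was at 241, 191 and 178 CPM with DMSO and 216, 218 and 219 CPM with Erastin, a log2 fold change of 0.11 (-0.12 to 0.34). With the GC trend removed this fold change was 0.15 (0.034 to 0.26), with an edgeR adjusted p of 0.117. CASTOR2, a paralogue of the arginine sensor CASTOR1, was at 10.9, 13.3 and 13.2 CPM with DMSO and 12.5, 12.1 and 13.9 CPM with Erastin in KELLY. SK-N-AS samples lay at 5.45, 4.73 and 5.11 CPM with DMSO and 4.24, 5.96 and 5.58 CPM with Erastin. Its log2 fold changes of 0.047 (-0.34 to 0.44) and 0.054 (-0.30 to 0.41) had intervals that included 0, and the KELLY value was -0.19 with the GC trend removed. CASTOR2 has a near-identical copy, CASTOR3, so that its counts are uncertain where reads could not be placed.

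DDIT4L and CASTOR1 were close to the detection limit. DDIT4L, the paralogue of DDIT4 also called REDD2, had 0, 0 and 2 counts with DMSO and 0, 4 and 2 counts with Erastin in KELLY. In SK-N-AS it had 13, 13 and 17 counts with DMSO and 10, 16 and 2 counts with Erastin. The SK-N-AS groups overlapped, with a log2 fold change of -0.68 (95% interval -1.80 to 0.45, edgeR adjusted p 0.811). CASTOR1, the arginine sensor that binds GATOR2, had 0, 6 and 3 counts with DMSO and 0, 2 and 7 counts with Erastin in KELLY, and 5, 0 and 2 against 5, 4 and 3 counts in SK-N-AS. A change in CASTOR1 was not detectable at this depth. Exons of CASTOR1 share bases with another annotated gene on the same strand, and those of SESN1, SESN3, DDIT4L, DEPTOR, CASTOR2 and TSC2 with genes on the opposite strand. Whether counting used strand is not given in the sources used here, so reads in these shared bases could belong to either gene.

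**Figure D3:**
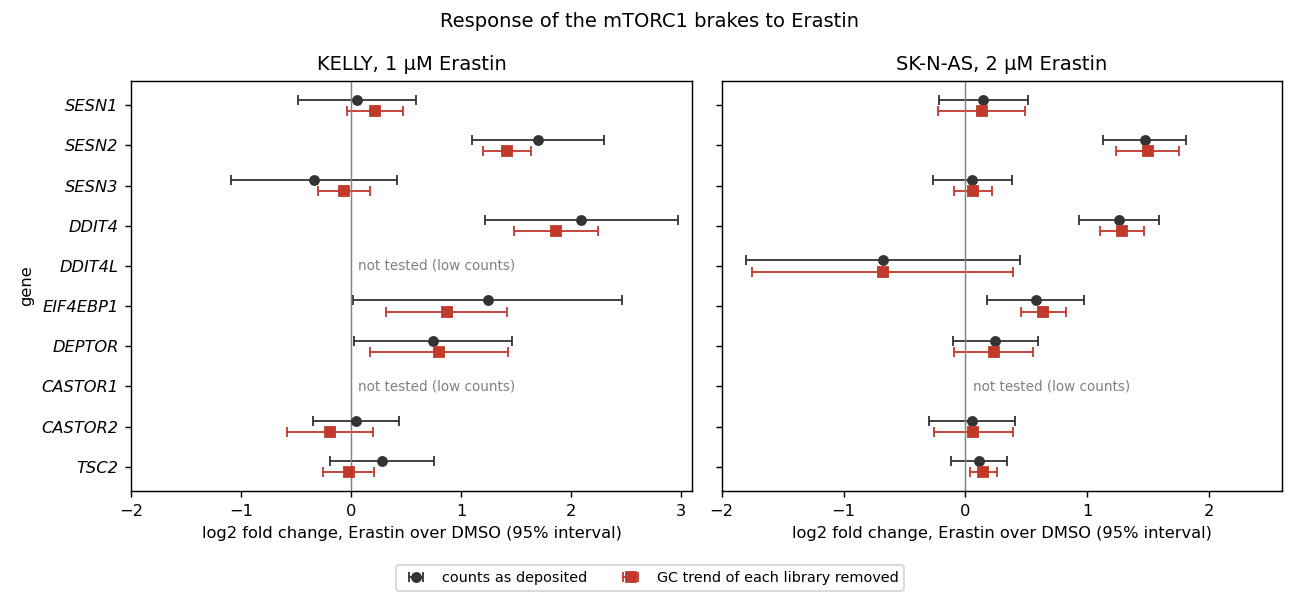
Log2 fold change of Erastin over DMSO (horizontal axis, with 95% intervals from edgeR's quasi-likelihood fit) for the members in KELLY (left) and SK-N-AS (right), from the counts as deposited (circles) and with the GC trend of each library removed (squares). Intervals of SESN2, DDIT4 and EIF4EBP1 lie above 0 in both lines and on both scales. For EIF4EBP1 the lower limit in KELLY was 0.017 from the counts as deposited. Those of DEPTOR lie above 0 in KELLY on both scales. The KELLY intervals are narrower once the trend is removed, except that of CASTOR2.

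Whether the response differed between the lines was tested as the interaction of treatment and line over all 12 samples. None of the 9 members tested was called by edgeR, and DESeq2 also called 0. Over all genes, edgeR called 0.00548% of 18239 (1 gene). At an unadjusted p under 0.05 there were 0 members, beside 4.25% of all genes. DDIT4L had the largest estimate (2.14, 95% interval -1.05 to 5.34) and rests on few counts. Next was DDIT4, whose fold was higher in KELLY by 0.84 on the log2 scale (95% interval -0.11 to 1.78, edgeR adjusted p 0.811). With the GC trend removed it was 0.57 (0.14 to 1.00) with an unadjusted p of 0.0133 and an edgeR adjusted p of 0.475. For SESN2 the interaction was 0.23 (-0.47 to 0.94), and -0.086 (-0.46 to 0.29) with the trend removed. These intervals leave room for a moderate difference in either direction for SESN2.

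The second question was how the control levels of the brakes differed between the lines. Of the 9 members tested, 4 were higher in KELLY and 2 were lower at an adjusted p under 0.05 and a fold of at least 1.5, where 56% of the 17089 genes tested passed, so that the members' share was close to that of all genes. The median log2 difference, KELLY minus SK-N-AS, was -0.093 over the members and 0.024 over all genes. All 3 sestrins were among the higher members. With DMSO, SESN3 was 7.27-fold higher in KELLY (log2 difference 2.86, SE 0.27, edgeR adjusted p 2.29e-05), and SESN1 was 5.17-fold higher (2.37, SE 0.19, adjusted p 9.78e-06). SESN2 was 2.29-fold higher (1.19, SE 0.25, adjusted p 0.00281). The control levels of the sestrins did not overlap between the lines. No share of all genes without overlap is given for this comparison, so this is a description only. CASTOR2 was 2.47-fold higher in KELLY (1.30, SE 0.18, edgeR adjusted p 0.000222).

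DDIT4L and DEPTOR were lower in KELLY. DDIT4L had 2 counts in all 3 KELLY DMSO samples together and 43 in SK-N-AS, a ratio of 21.5 (95% exact interval 5.60 to 183, counting error only), and its edgeR adjusted p was 0.00142. DEPTOR was 1.91-fold lower in KELLY (log2 difference -0.93, SE 0.24, edgeR adjusted p 0.00939). Its samples did not overlap between the lines, again with no share of all genes given. DDIT4 (-0.58, 95% interval -1.32 to 0.17), EIF4EBP1 (-0.17, -1.11 to 0.78) and TSC2 (-0.093, -0.54 to 0.36) did not pass the test. The DDIT4 difference had an edgeR adjusted p of 0.156, and of 0.00649 with the GC trend removed, when it was -0.62 (-0.99 to -0.25). The lines also differed in MYCN and in the adrenergic and mesenchymal markers given above, whose part in these differences was not tested.

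Per exon kb, EIF4EBP1 was the most abundant of the 10 in all 4 groups, at 62.9 ± 37.3 CPM per kb in the KELLY DMSO samples and 71.3 ± 20.1 in the SK-N-AS DMSO samples (SD, n = 3), and its range did not overlap with that of the next gene in any group (by canonical transcript length it overlapped with TSC2 in KELLY with DMSO). In KELLY with DMSO, SESN3 was next at 18.0 ± 5.62, followed by TSC2 at 9.20 ± 2.09, DDIT4 at 7.11 ± 3.26 and SESN2 at 6.64 ± 1.94 CPM per kb (SD, n = 3). The last 3 of these overlapped their neighbours in that order. Lower still and without overlap came SESN1 at 2.71 ± 0.271, CASTOR2 at 1.52 ± 0.164 and DEPTOR at 0.872 ± 0.217 CPM per kb (SD, n = 3), above CASTOR1 and DDIT4L. With Erastin, DDIT4 and SESN2 were at places 2 and 3 in KELLY, at 30.2 ± 8.85 and 21.4 ± 3.75 CPM per kb (SD, n = 3), where the ranges of DDIT4, SESN2, SESN3 and TSC2 overlapped from one to the next. In SK-N-AS with DMSO the order after EIF4EBP1 was DDIT4 at 10.7 ± 1.91, TSC2 at 9.90 ± 1.62, SESN2 at 2.93 ± 0.479, SESN3 at 2.50 ± 0.576 and DEPTOR at 1.69 ± 0.191 CPM per kb (SD, n = 3). There DDIT4 overlapped with TSC2, and SESN2 with SESN3. CASTOR2 and SESN1, at 0.621 ± 0.0437 and 0.530 ± 0.0900 CPM per kb, overlapped as well, with DDIT4L and CASTOR1 below them. This order was the same with Erastin in SK-N-AS, where DDIT4 was at 25.5 ± 4.54 and SESN2 at 8.06 ± 1.49 CPM per kb (SD, n = 3), neither overlapping a neighbour. The place of TSC2 depends on the length used, since the union of its exons spans 20.527 kb and its canonical transcript 6.415 kb.

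**Figure D4:**
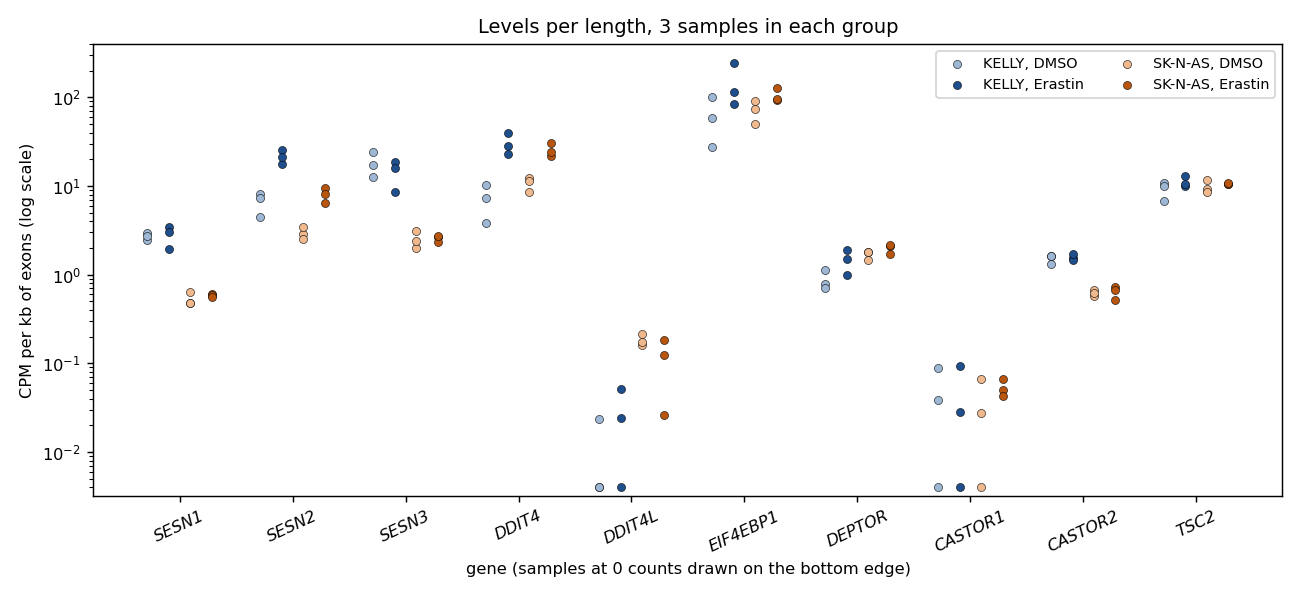
CPM per kb of exons (vertical axis, log scale) for the 10 members in the 3 samples of each group, with samples at 0 counts drawn on the bottom edge. EIF4EBP1 lies highest in each group, and DDIT4L and CASTOR1 lie lowest.

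The other genes of the pathway were taken from 3 lists of 60 genes in all, also chosen with earlier results of these data known. In KELLY 0 of 21 other brakes, 0 of 27 core and activator genes and 0 of 12 outputs were called by edgeR (0.00615% of all genes). Of these genes 1 had an unadjusted p under 0.05, beside 2.64% of all genes, and DESeq2 called 0 in the 3 lists. The medians of their log2 fold changes were 0.12, 0.022 and 0.24, beside 0.0052 over all genes tested. In SK-N-AS 1 of 20 other brakes tested was called, with 0 of 27 core genes and 0 of 12 outputs, against 0.659% of all genes. Here 2 other brakes, 1 core gene and 1 output had an unadjusted p under 0.05, beside 8.77% of all genes. DESeq2 called 1 gene over the 3 lists, with no share of all genes given for it. The medians there were 0.075, 0.052 and 0.013, beside -0.0089 over all genes. The gene called was GRB10, an adaptor of the insulin receptor that mTORC1 phosphorylates and that dampens growth factor signalling. It was at 14.8 to 16.7 CPM with DMSO and 21.8 to 27.6 CPM with Erastin in SK-N-AS, a log2 fold change of 0.63 (SE 0.12, edgeR adjusted p 0.0291). In KELLY it was at 129 to 141 CPM with DMSO and 167 to 205 CPM with Erastin, a log2 fold change of 0.49 (SE 0.14, edgeR adjusted p 0.770). The groups did not overlap in either line, and the interaction was -0.13 (SE 0.17, edgeR adjusted p 0.830). The call of GRB10 in SK-N-AS was lost when any of 4 libraries was left out, namely DMSO replicate 2 and each of the Erastin replicates.

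**Figure D5:**
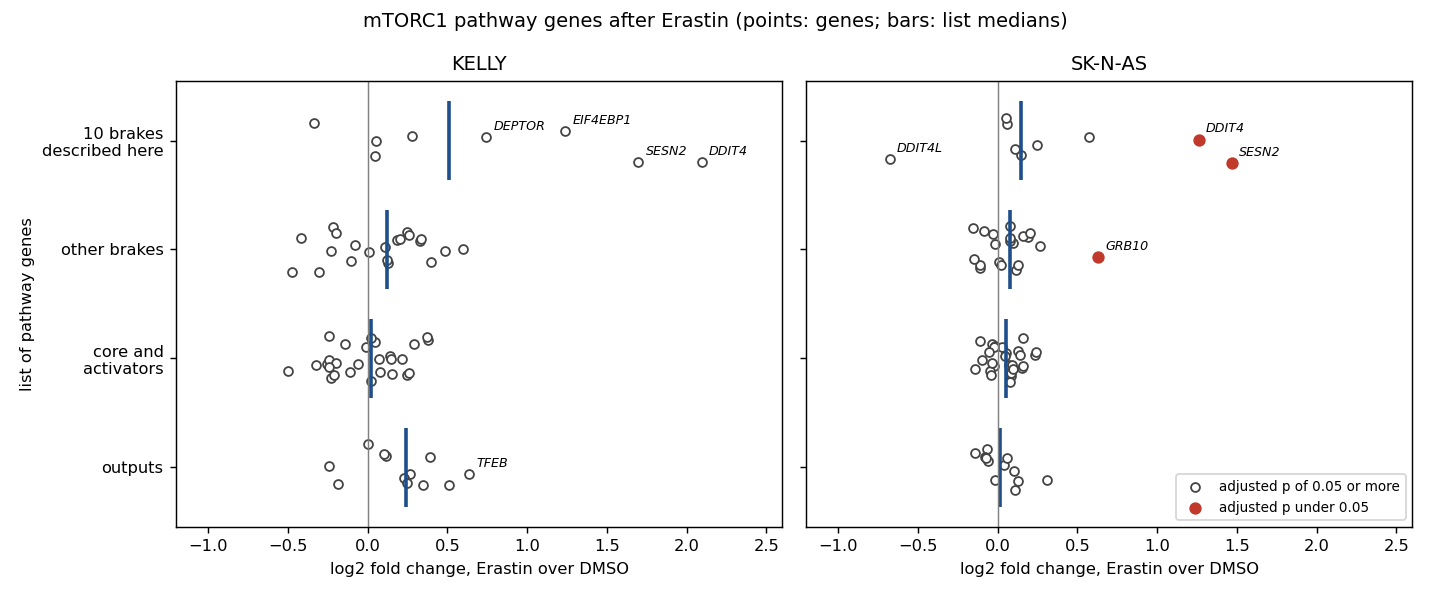
Log2 fold change of Erastin over DMSO (horizontal axis) of each gene tested in the 10 members and in the 3 other lists, in KELLY (left) and SK-N-AS (right), with filled points for an edgeR adjusted p under 0.05 and bars for list medians; vertical scatter within a list has no meaning. SESN2 and DDIT4 lie at 1.26 or more in both lines, while the other lists lie within 0.64 of 0.

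Between the lines with DMSO, 6 other brakes were higher and 5 lower in KELLY of 20 tested, 7 and 4 of 27 core and activator genes, and 3 and 0 of 12 outputs. Over all genes 56% passed in either direction, which no list exceeded. The largest differences toward KELLY were those of RRAGD, a Rag GTPase (41.6 to 59.1 against 1.58 to 2.11 CPM, log2 difference 4.70, SE 0.22), GRB10 (3.12, SE 0.14) and FNIP2, a partner of folliculin (1.48, SE 0.17). The edgeR adjusted p of these was 4.39e-07, 3.16e-07 and 7.53e-05. Lower in KELLY were LAMTOR2, a subunit of the Ragulator scaffold (-1.93, SE 0.17), PRKAB1, a regulatory subunit of AMPK (-1.82, SE 0.13), and BMT2, also known as SAMTOR, a sensor of S-adenosylmethionine (-1.54, SE 0.33). The edgeR adjusted p of these was 1.54e-05, 3.99e-06 and 0.00326.

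Genes with a pattern most like that of SESN2 were sought by Pearson's correlation of log2 CPM, centred within each line, over the 12 samples and 11265 genes. The nearest were RIMS3 (r = 0.99), GPT2 (0.99), ADM2 (0.98), DDIT4 (0.97) and SLC1A5 (0.97). DDIT4 was thus at place 4, and EIF4EBP1, with r = 0.82, stood at place 129. The other sestrins did not follow SESN2, with r = 0.057 for SESN1 and -0.44 for SESN3. The points share the treatment, the libraries and their GC trend, so that these values are a description and carry no p.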

How the data were processed

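Raw counts per gene from bulk RNA-seq of KELLY and SK-N-AS cells were analysed (4 groups of 3 samples). According to the methods and labels, the authors mapped read pairs to GRCh38, assigned them to GENCODE genes with HTSeq, and deposited counts without normalization. Trimmomatic and DESeq2 are named in the submitters' processing notes.

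Tests were run in R 4.3.3 with edgeR 4.0.16 (filterByExpr, TMM scaling, quasi-likelihood test, Benjamini-Hochberg adjustment over all genes tested), in each line, between DMSO samples of the lines, and as an interaction over 12 samples. Per-length levels and GC content came from GENCODE 44, matched by gene name, and GC content is that of the canonical transcript. GC content was available for 87.6% (KELLY) and 88.4% (SK-N-AS) of genes in the fits. The GC correction was a loess fit (span 0.5, degree 2) used as an offset. Alternatives included DESeq2 1.42.0, other scalings, no filter, protein-coding genes, a replicate block and each replicate left out. The canonical transcript length and the GC-corrected sestrin shares were chosen after seeing the data. Scripts were tested on simulated data.

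Named genes were all 10 members, up to 3 rising and 3 falling genes of the other lists per comparison with an adjusted p under 0.05, and the 5 genes most like SESN2 with a mean log2 CPM of at least 1 in each line. Members and lists were chosen with earlier results of these data known. Intervals on counts cover counting error only.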

Additional observations from a re-analysis of the deposited data

How the results depend on the processing

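Of the log2 differences recomputed under alternatives, 102 of 120 in KELLY, 123 of 134 in SK-N-AS, 127 of 135 between the lines and 163 of 180 for the interaction kept their direction and their side of the threshold, and those that changed sign were no larger than 0.20 in size. SESN2 was called in 15 of 15 alternatives in SK-N-AS and in 5 of 15 in KELLY, where the adjusted p ranged from 1.88e-06 to 0.961. DDIT4 was called in 14 of 15 in SK-N-AS (1.25, adjusted p 0.321 with all 12 samples in 1 fit) and in 4 of 15 in KELLY (adjusted p from 4.42e-06 to 0.982). Members called in KELLY were 0 in the edgeR test within the line described above. The number was 2 with DESeq2, with no filter on low counts, with the GC correction or with all 12 samples in 1 fit. It was 1 with the replicate block and GC correction together. At the study's threshold KELLY had 4 members, 2 with the replicate block, and 2 to 3 when 1 replicate was left out (2 without DMSO replicate 1). In SK-N-AS the 2 members called became 4 with the block and GC correction together (EIF4EBP1 and TSC2 were added, adjusted p 7.43e-08 and 0.0111) and 1 with all 12 samples in 1 fit. EIF4EBP1 was also called there without DMSO replicate 1 (adjusted p 0.0434) or DMSO replicate 3 (0.0427). The GC correction alone raised the calls over all genes too. In SK-N-AS it gave 6.97% of all genes, where the same test without it gave 0.659%. The matching KELLY shares were 0.203% and 0.00615%. No share of all genes is given for the remaining alternatives, so their member counts have no background to be read against. Other pathway genes called in SK-N-AS went from 1 to 4 with the GC correction (GRB10, PRKAG1, PDPK1 and ULK1, named after their values were seen). These were 2 of 20 other brakes, 1 of 27 core and activator genes and 1 of 12 outputs, where 6.97% of all genes were called. The number of pathway genes called was 6 with the block and GC correction, 0 with all 12 samples in 1 fit, and 0 to 1 with 1 replicate left out. The control difference of DDIT4 passed without KELLY DMSO replicate 2 (-0.94, adjusted p 0.0173). The causes of these changes were not tested.

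Same-numbered samples did not deviate together (correlations of -0.49, -0.48 and -0.036 in KELLY, -0.0081, 0.058 and 0.12 in SK-N-AS), and the numbers were not used as pairs. The block alone called 0 members in KELLY and 3 in SK-N-AS (EIF4EBP1 0.60, adjusted p 0.000347).

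Signs changed for values near 0. With the GC correction, and with the block and GC correction, CASTOR2 in KELLY was -0.19 and -0.20, TSC2 in KELLY -0.025 and -0.030, and the interactions of SESN1 0.087 and 0.075, of SESN2 -0.086 and -0.074 and of TSC2 -0.19 and -0.19. The CASTOR2 interaction was 0.029 with no filter and 0.013 with the block. With 1 replicate left out, values ranged in KELLY from -0.11 to 0.25 for SESN1 and -0.038 to 0.094 for CASTOR2, in SK-N-AS from -0.085 to 0.25 for SESN3 and -0.037 to 0.19 for CASTOR2, between the lines from -0.70 to 0.20 for EIF4EBP1 and -0.22 to 0.088 for TSC2, and for the interaction from -0.25 to 0.12 for SESN1, -0.13 to 0.10 for CASTOR2 and -0.0015 to 0.30 for TSC2.

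By canonical transcript length, KELLY DMSO had TSC2 at place 2 and SESN3 at 3, KELLY Erastin had TSC2 at 3, SESN2 at 4 and SESN3 at 5, and each SK-N-AS group had TSC2 at 2, DDIT4 at 3, SESN1 at 7 and CASTOR2 at 8. Depth limited DDIT4L in KELLY and CASTOR1 in both lines.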
